A study of Mus musculus with 20 samples.

Results

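The genes described here were 9 tubulin genes and the long intergenic noncoding RNA gene Gm47076, which lies next to Tubb2b, 10 of the 56239 genes in the count table. Of these, 5 encode β-tubulins (Tubb2b, Tubb2a, Tubb4b, Tubb5, Tubb6) and 4 encode α-tubulins (Tuba1a, Tuba1b, Tuba1c, Tuba4a). Tubb2b and Gm47076 were selected on their higher level at 0.5 h, and the other tubulins were added as the family around them. The cells were B3, a mouse pre-B cell line, transduced with a retrovirus that expressed Ikaros (IKZF1) fused to ERt2, a form of the estrogen receptor ligand-binding domain that holds its partner outside the nucleus until it binds 4-hydroxytamoxifen (4-OHT). All 20 libraries came from cells that carried the fusion. Chromatin-associated RNA, which is mostly nascent, was sequenced at 0 h without the drug and at 0.5, 1, 2, 6, 12, 15, 18, 21 and 24 h in 500 nM 4-OHT, giving 2 replicates for each of 10 time points. No 4-OHT-treated cells without the fusion were among these libraries, so the action of IKZF1 and that of the drug or of time in culture cannot be told apart.

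Microtubules are polymers of dimers, each of an α-tubulin and a β-tubulin, and they form the mitotic spindle and the tracks for transport in the cell. Mammals carry several genes for each subunit. The proteins they encode are alike along most of their length and differ most at their acidic C-terminal tails, which face outward from the microtubule and carry enzymatic modifications. Tubb5 is the widely expressed β-tubulin of dividing cells, whereas Tubb2b and Tubb2a are known chiefly from the nervous system, where Tubb2b takes part in neuronal migration. New tubulin chains are folded by the chaperonin TRiC (the Cct genes), prefoldin and the tubulin cofactors (the Tbc genes). An excess of free tubulin dimer leads to decay of tubulin mRNA, a feedback that acts on ribosome-bound mRNA in the cytoplasm through TTC5, SCAPER and the CCR4-NOT deadenylase.

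Library totals ranged from 33296158 to 46868954 counts (median 40943260). Levels are given as CPM, counts scaled to a library of 1000000 counts after TMM correction. The chi-square of replicate counts per degree of freedom was 1.24 to 1.72 at 0, 0.5, 1, 2, 6 and 15 h but 9.22 for the 12 h pair, 13.9 for the 18 h pair, 4.49 for the 21 h pair and 2.47 for the 24 h pair. The labels do not say whether the 2 libraries at 0 h came from separate cultures, so p-values measure the spread between these libraries, which may in part be technical. Of 11 markers of pre-B cells, 9 reached 10 counts in a library, with a summed level of 7820 to 16077 CPM, while Rag1 and Rag2 had 0 counts throughout. Nearly all of that sum was Ebf1 and Pax5 (means of 9411 and 2020 CPM), whereas Igll1 went from 168.7 CPM at 0 h to 0.985 at 24 h and Vpreb1 from 17.6 to 0.370. Summed markers stayed at or below 1.44 CPM for T cells, 1.62 for myeloid cells and 0.777 for erythroid cells.

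Tubb2b, Gm47076 and Tubb2a are neighbours on chromosome 13 (mm10, GENCODE M21). Tubb2b lies on the minus strand at 34126748 to 34130466 and Gm47076 on the plus strand at 34119701 to 34122465, so that their 3′ ends face each other across 4282 bases. Tubb2a lies on the minus strand at 34074274 to 34078007, 48740 bases from Tubb2b. The coding sequences of Tubb2b and Tubb2a were identical at 96.5% of 1335 bases and differed at 47. Their last 60 coding bases before the stop codon encode the C-terminal tail and are shown, with the 3 differing bases in capitals, because they let a reader see how few letters separate the reads of the paired genes.
Tubb2b: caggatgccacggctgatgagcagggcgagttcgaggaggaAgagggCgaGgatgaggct
Tubb2a: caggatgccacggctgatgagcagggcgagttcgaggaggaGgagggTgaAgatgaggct

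Of the 75-base windows in the transcript of Tubb2b, 27.5% also occurred in Tubb2a. Of those of Tubb2a, 40.2% occurred in Tubb2b. Part of the reads of either gene could thus be placed at the other. The handling of such reads is not given in the sources used here. No 75-base window of Tubb5 or Tubb6 occurred in another gene, whereas 70.4% of those of Tuba1a, 70.0% of those of Tuba1b and 48.9% of those of Tuba1c did. The share was 33.4% for Tuba4a, all of it with the antisense gene Stk16, and 29.9% for Tubb4b. The remaining genes are spread over the genome, with Tubb5 on chromosome 17 (35833921 to 35838306, minus strand), Tubb4b on chromosome 2 (25222160 to 25224702, minus strand) and Tuba4a on chromosome 1 (75214228 to 75219865, minus strand). Tuba1b (98931425 to 98934565, minus strand), Tuba1a (98949837 to 98953703, minus strand) and Tuba1c (99029891 to 99038110, plus strand) form a cluster on chromosome 15. Gm49450, on the minus strand there, covered 96.1% of the Tuba1a gene and 77.3% of the Tuba1b gene.

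RefSeq promoters (GRCm38.p6) were listed for 7 of the 10 genes, and not for Tubb2b, Gm47076 or Tubb6. The 250 bases before the start are shown for Tubb2a, which rose, and for Tubb4b and Tubb5, the β-tubulins with the highest levels, because the IKZF1 core letters can be compared between them. Capitals mark GGGAA, the core letters bound by IKZF1, searched as GGGAA and TTCCC to cover both strands. The Tubb2a window was chr13:34078009-34078258, that of Tubb4b chr2:25224703-25224952 and that of Tubb5 chr17:35838302-35838551, all on the minus strand.
Tubb2a: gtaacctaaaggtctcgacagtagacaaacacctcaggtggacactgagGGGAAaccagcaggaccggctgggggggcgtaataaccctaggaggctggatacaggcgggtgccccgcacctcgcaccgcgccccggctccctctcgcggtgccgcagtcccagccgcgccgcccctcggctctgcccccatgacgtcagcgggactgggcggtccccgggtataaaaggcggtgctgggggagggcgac
Tubb4b: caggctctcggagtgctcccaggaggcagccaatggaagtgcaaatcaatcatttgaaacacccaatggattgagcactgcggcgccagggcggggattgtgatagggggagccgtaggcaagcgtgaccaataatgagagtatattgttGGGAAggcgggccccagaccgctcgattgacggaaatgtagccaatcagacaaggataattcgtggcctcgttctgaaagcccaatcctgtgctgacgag
Tubb5: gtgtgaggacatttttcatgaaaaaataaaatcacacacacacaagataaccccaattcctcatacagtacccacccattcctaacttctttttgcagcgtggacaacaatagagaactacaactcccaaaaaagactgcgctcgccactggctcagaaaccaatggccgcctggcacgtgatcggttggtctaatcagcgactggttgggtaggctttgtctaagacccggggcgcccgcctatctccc

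GGGAA occurred 1 time in Tubb2a and in Tubb4b and 0 times in Tubb5. The Tubb5 sequence does hold the shorter ttcc and tccc, so it is not free of the authors' motifs. Over all 32851 promoters of this length, 56.2% held it. CCAAT, the letters of the CCAAT box, searched on both strands as CCAAT and ATTGG, occurred 5 times in Tubb4b, 2 times in Tubb5 and 0 times in Tubb2a, and 33.9% of all promoters held it. These matches describe the letters alone.

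Tubb2b, which had been selected on its 0.5 h level, was higher than at 0 h in both libraries of every later time point. It had 24 and 24 counts (0 h), 60 and 70 (0.5 h), 161 and 154 (1 h), 155 and 156 (2 h) and 239 and 290 (6 h). It then had 167 and 157 counts (12 h), 244 and 275 (15 h), 373 and 353 (18 h), 304 and 407 (21 h) and 399 and 412 (24 h). Counts are relative to the library, so a change in each cell and a change in how many cells transcribe the gene cannot be told apart. Replicates lay close together, with the widest SD at 12 h (4.36 ± 0.63 CPM), and the 12 h libraries were the ones that broke the upward course. In CPM the level was 0.529 ± 0.016 (SD, n = 2) at 0 h, 1.59 ± 0.05 at 0.5 h, 3.56 ± 0.32 at 1 h and 11.5 ± 0.5 at 24 h. As a description of the contrast used for the choice, the log2 difference from 0 h was 1.58 ± 0.21 (SE) at 0.5 h, 2.74 ± 0.18 at 1 h and 4.44 ± 0.14 at 24 h. Gene-wide, 0.0542% of the 16601 genes tested were called up at 0.5 h, 9 genes that include Tubb2b and Gm47076. Their place among the 9 follows from the choice on this contrast and is not a result.

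**Figure D1:**
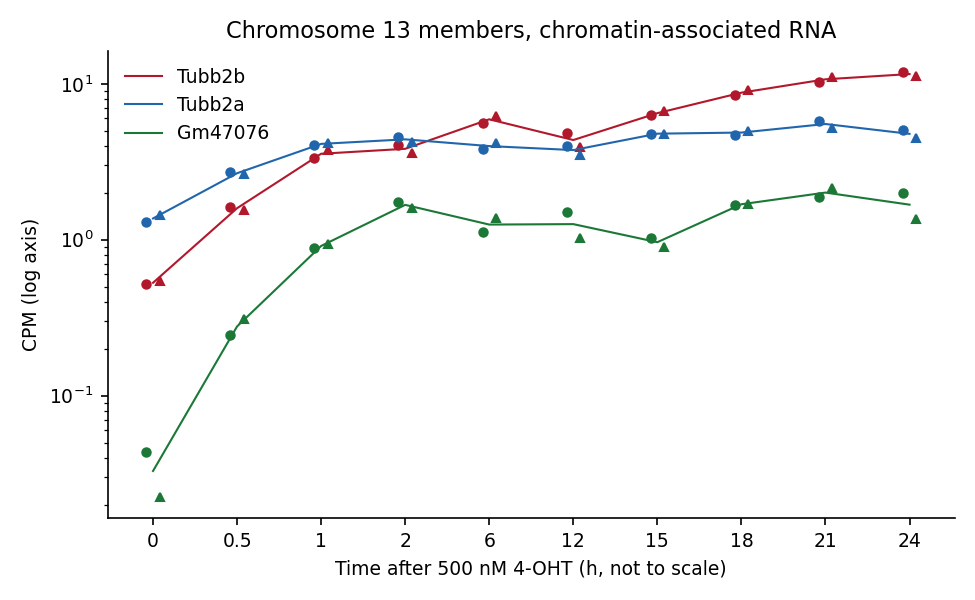
CPM on a log axis against time after 4-OHT for Tubb2b, Tubb2a and Gm47076. Circles are replicate 1, triangles replicate 2 and lines the means, and Tubb2b passes from 0.529 CPM at 0 h, below Tubb2a at 1.37 CPM, to 11.5 CPM at 24 h, above Tubb2a at 4.77 CPM.

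Ordered by mean CPM, Tubb2b ran from 0 h through 0.5, 1, 2, 12, 6, 15, 18 and 21 h to 24 h. The libraries of 1 and 2 h and those of 2 and 12 h overlapped, and all other neighbours in this order were separate. Contrasts among the induced time points do not use the 0 h libraries and could be tested. Between 1 and 2 h and the late points of 18, 21 and 24 h, Tubb2b rose by a log2 change of 1.48 ± 0.07 (SE), or 2.79-fold (edgeR adjusted p = 6.1e-15). A call required an adjusted p below 0.01 and a fold above 2. From 1 h on no single step met both for any of the genes. Of the 63 steps tested in edgeR, 30 had an unadjusted p below 0.05 and 17 an adjusted p below 0.01, while DESeq2 also called 0. Tubb2b was higher at 6 h than at 2 h by a log2 change of 0.63 ± 0.11 (adjusted p = 6.3e-05), lower at 12 h than at 6 h by -0.45 ± 0.11 (adjusted p = 0.0021), higher at 15 h than at 12 h by 0.58 ± 0.11 (adjusted p = 0.00030) and higher at 18 h than at 15 h by 0.43 ± 0.09 (adjusted p = 0.00091). The 12 h libraries thus stood below both neighbouring times, in a pair with a replicate chi-square of 9.22 per degree of freedom. Whether the dip belongs to Tubb2b or to those libraries was not tested.

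Gm47076, which was also selected at 0.5 h, started from 2 and 1 counts. It had 9 and 14 counts (0.5 h), 43 and 38 (1 h), 67 and 69 (2 h), 48 and 64 (6 h), 52 and 41 (12 h) and 40 and 37 (15 h). It had 74 and 66 counts (18 h), 55 and 79 (21 h) and 67 and 50 (24 h). The libraries after 0 h all lay above both at 0 h, and the level was highest at 21 h, at 2.01 ± 0.20 CPM. Because both 0 h libraries were under a floor of 3 counts (0.0662 CPM on average), folds are lower bounds against that floor. The level was at least 13.8-fold higher at 1 h and at least 25.3-fold higher at both 2 and 24 h. Between 1 and 2 h Gm47076 differed by a log2 change of 0.87 ± 0.21 (adjusted p = 0.0026), below the fold required. Late against early it differed by 0.53 ± 0.13 (adjusted p = 0.00072), also below that fold, and by 0.33 (adjusted p = 0.024) with library totals. Its level was already at 1.67 ± 0.11 CPM at 2 h and was 1.68 ± 0.45 CPM at 24 h, while Tubb2b went from 3.83 ± 0.31 to 11.5 ± 0.5 CPM between those times.

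Tubb2a, the close relative of Tubb2b, was higher in all libraries after 0 h than in those at 0 h, with most of the difference in place by 1 h. It had 60 and 64 counts (0 h), 100 and 118 (0.5 h), 196 and 170 (1 h), 175 and 183 (2 h), 164 and 192 (6 h) and 139 and 141 (12 h). From 15 h on it had 186 and 197, 209 and 194, 171 and 193, and 169 and 166 counts at 15, 18, 21 and 24 h. At 0.5 h its log2 difference from 0 h was 0.96 ± 0.14, which lay just under the fold of 2 that Tubb2b passed. Among the 7 tubulins tested against 0 h, Tubb2a was the 1 called up at 1 h (log2 change 1.59 ± 0.12, adjusted p = 6.5e-10), where 2.33% of all genes were. It was also the 1 called up at 2 h (1.68 ± 0.12, adjusted p = 1.6e-10), where 6.25% of all genes were, and at 24 h (1.80 ± 0.12, adjusted p = 1.6e-11), where 20% were. Late against early its log2 change was 0.24 ± 0.06 (adjusted p = 0.0017), below the fold required. With library totals it was 0.04 (adjusted p = 0.57), and without 2 h replicate 2 the adjusted p was 0.013, so a late difference of Tubb2a depends on the scaling.

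The share of Tubb2b in the summed counts of Tubb2b and Tubb2a, which needs no scaling between libraries, climbed within the induced cells. It was 28.6% and 27.3% in the 0 h libraries and 37.5% and 37.2% in those of 0.5 h. The 4 libraries of 1 and 2 h held 45.1% to 47.5% (mean 46.4% ± 1.1, SD), and the 6 libraries of 18, 21 and 24 h held 64.0% to 71.3%, with an SD of 3.3 points. The groups did not overlap, and the difference was 20.6 percentage points (exact two-sided permutation test, 210 arrangements, p = 0.0095, the smallest they can give). Libraries of 1 group came from different time points, so they are not replicates of 1 condition. The part played in this share by reads that match both genes was not tested.

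The remaining 3 β-tubulins were not called in either direction at 24 h. Tubb5 had 4302 and 4130 counts (0 h), 3664 and 4134 (0.5 h), 4160 and 3211 (1 h), 3172 and 3351 (2 h), 3710 and 3826 (6 h) and 3219 and 3163 (12 h). It then had 3288 and 3203 counts (15 h), 2977 and 2837 (18 h), 1807 and 2319 (21 h) and 1929 and 1946 (24 h). In CPM its libraries from 1 h on lay below both at 0 h, with 93.0 ± 0.04 CPM at 0 h and 55.2 ± 3.3 at 24 h. The log2 change at 24 h was -0.75 ± 0.07 (adjusted p = 2.2e-09), short of the fold required. Tubb4b, a β-tubulin of cilia and many dividing cells, had 22.4 ± 2.3 CPM at 0 h, 27.1 ± 0.2 at 12 h and 14.5 ± 0.6 at 24 h. Its log2 change from 0 h was 0.28 ± 0.07 at 12 h (adjusted p = 0.0011) and -0.63 ± 0.07 at 24 h (adjusted p = 7.5e-08), neither past the fold.

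Tubb6 (chromosome 18), a minor β-tubulin in most tissues, had 55 and 51 counts (0 h), 88 and 75 (1 h), 38 and 58 (2 h), 31 and 37 (6 h) and 33 and 28 (24 h). The 1 h libraries were the highest of the course in CPM, at 1.83 ± 0.02 against 1.17 ± 0.03 at 0 h, and from 6 h on all libraries lay below both at 0 h. The log2 change was 0.65 ± 0.17 at 1 h (adjusted p = 0.0031) and -0.43 ± 0.21 at 24 h (adjusted p = 0.075), so neither was called. The 24 h value was -0.25 (adjusted p = 0.44) without 24 h replicate 2 and -0.69 (adjusted p = 0.0051) with library totals.

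Of the α-tubulins, Tuba4a and Tuba1b fell. Tuba4a, which overlaps the antisense gene Stk16 over 24.5% of its length, had 660 and 536 counts (0 h), 506 and 648 (0.5 h), 472 and 401 (1 h), 262 and 269 (2 h) and 298 and 301 (6 h). It then had 240 and 243 counts (12 h), 210 and 235 (15 h), 187 and 147 (18 h), 105 and 130 (21 h) and 121 and 152 (24 h). From 1 h on every library lay below both at 0 h, and most of the early difference was in place by 2 h. Tuba4a was the 1 of 7 tubulins called down at 2 h (log2 change -1.01 ± 0.09, adjusted p = 3.7e-09), where 6.91% of all genes were, and at 1 h, where 4.84% of all genes were, edgeR called 0 of the 7, although 3 had an unadjusted p below 0.05 with a lower level, and DESeq2 called 0. The 2 h call lay at the fold limit and was lost without 0 h replicate 1 or without 2 h replicate 2, which left 0 genes called. At 24 h its log2 change was -1.76 ± 0.10 (adjusted p = 6.8e-13).

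Tuba1b, the main α-tubulin of dividing cells, had 371 and 329 counts (0 h), 277 and 270 (1 h), 179 and 218 (2 h), 260 and 278 (6 h), 198 and 224 (18 h), 90 and 129 (21 h) and 97 and 78 (24 h). All libraries after 0 h lay below both at 0 h in CPM, with the lowest at 24 h. Its log2 change was -0.66 ± 0.12 at 2 h (adjusted p = 8.5e-05) and -1.63 ± 0.14 at 24 h (adjusted p = 1.1e-09). At 24 h Tuba1b and Tuba4a were the 2 of 7 called down, where 20.1% of all genes were. With library totals in place of TMM factors, which moved the median of all genes by -0.26, the calls were 1 up and 4 down.

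Tuba1c, another α-tubulin of dividing cells, followed a different course, with 16.4 ± 0.5 CPM at 0 h, 20.3 ± 0.7 at 6 h, 23.4 ± 2.7 at 12 h and 9.15 ± 0.77 at 24 h. All libraries of 6, 12 and 15 h lay above both at 0 h, and all of 18, 21 and 24 h lay below them. The log2 change was 0.52 ± 0.08 at 12 h (adjusted p = 4.9e-06) and -0.84 ± 0.09 at 24 h (adjusted p = 1.6e-08), neither past the fold. Tuba1a, an α-tubulin of neurons, had 0 to 6 counts in every library and was not tested.

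**Figure D2:**
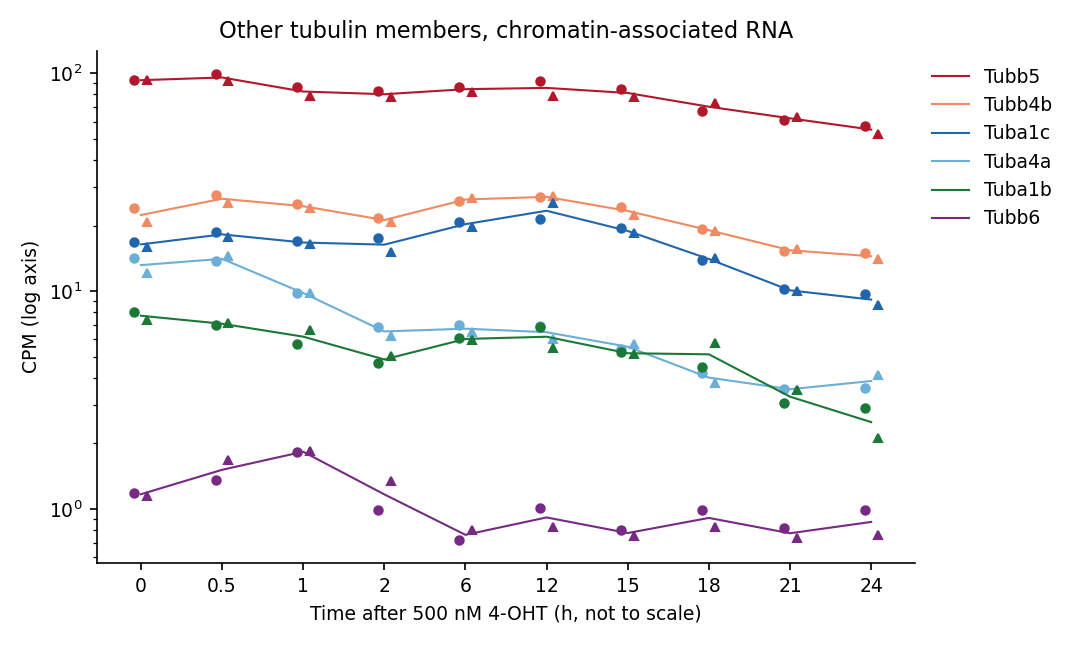
CPM on a log axis against time after 4-OHT for the 6 other tubulins tested, with circles for replicate 1, triangles for replicate 2 and lines for means. Tubb5 goes from 93.0 CPM at 0 h to 55.2 at 24 h, Tuba1b and Tuba4a are lowest at 21 or 24 h, and Tuba1c has its highest mean, 23.4 CPM, at 12 h.

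Among the induced times alone, 6 of the 9 genes tested changed (adjusted p below 0.01 and more than a 2-fold range over the means from 1 to 24 h), where 47.7% of all genes did. The log2 range was 1.70 for Tubb2b, 1.47 for Tuba4a, 1.36 for Tuba1c, 1.31 for Tuba1b, 1.26 for Tubb6 and 1.15 for Gm47076. The 3 that did not pass the fold were Tubb4b at 0.91, Tubb5 at 0.63 and Tubb2a at 0.55. Late against early, Tubb2b was the 1 of 9 called up, where 17.7% of all genes were, and Tuba4a the 1 called down (log2 change -1.07 ± 0.07, adjusted p = 4.2e-12), where 16.7% were. Late against early, 1 gene of 9 in either direction is below the gene-wide share. The other 5 tubulins besides Tubb2a had late-against-early log2 changes of -0.79 ± 0.13 for Tubb6, -0.66 ± 0.09 for Tuba1b, -0.60 ± 0.05 for Tuba1c, -0.49 ± 0.05 for Tubb4b and -0.39 ± 0.04 for Tubb5 (-0.59 with library totals), each below the fold required.

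Levels of different genes were compared as CPM per kb of gene body, since intronic reads were counted. At 0 h the order was Tubb5 (21.2), Tubb4b (8.79), Tuba1b (2.46), Tuba4a (2.33), Tuba1c (1.99), Tubb2a (0.367), Tubb2b (0.142), Tubb6 (0.0971), Gm47076 (0.0119) and Tuba1a (0.0086). At 0 h the libraries of Tuba1b and Tuba4a overlapped, and so did those of Gm47076 and Tuba1a, which rest on 1 or 2 counts each. At 24 h the order was Tubb5 (12.6), Tubb4b (5.69), Tubb2b (3.10), Tubb2a (1.28), Tuba1c (1.11), Tuba1b (0.797), Tuba4a (0.686), Gm47076 (0.607), Tubb6 (0.0725) and Tuba1a (0.0035), and the libraries of Tuba1b, Tuba4a and Gm47076 overlapped their neighbours. Tubb2b lay above Tubb2a, Tuba1c and Tuba4a at 24 h on this scale. Its place relative to Tuba1b is uncertain, since 712 of the 3141 bases of Tuba1b were free of Gm49450 and the level was divided by all of them. The place of Tuba1a is uncertain for the same reason, since 152 of its 3867 bases were free of Gm49450. Per kb of merged exons the order at 0 h differed, with Tuba1c (7.17) above Tuba1b (4.11) and Tuba4a (3.56), and Tubb6 (0.479) above Tubb2b (0.231). At 24 h by exons Tuba1c stood above Tubb2a, and Gm47076 above Tuba4a, while Tubb2b kept the third place.

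The make-up of the summed level of the 5 β-tubulins shifted with these changes. Tubb4a, a β-tubulin outside this sum, had 0.160 CPM per kb at 0 h and 0.365 at 24 h. Tubb5 made up 69.3% ± 2.0 (SD, n = 2) of the sum at 0 h and 55.4% ± 0.3 at 24 h, and Tubb4b 28.7% ± 2.2 and 25.0% ± 0.3. Tubb2b made up 0.466% ± 0.027 at 0 h, 1.28% ± 0.03 at 0.5 h, 3.56% ± 0.13 at 2 h, 8.65% ± 0.15 at 18 h and 13.7% ± 0.2 at 24 h, and Tubb2a reached 5.62% ± 0.13 at 24 h. The sum itself was 30.6 ± 0.9 CPM per kb at 0 h, 28.9 ± 1.2 at 2 h, 32.4 ± 2.4 at 12 h and 22.7 ± 1.3 at 24 h, and the summed α-tubulin level went from 6.79 ± 0.47 to 2.60 ± 0.20 between 0 and 24 h. The α-tubulin sum includes Tuba1a and Tuba1b, whose levels were divided by bases that Gm49450 also covers. The shares are of nascent RNA, and protein was not measured in these libraries.

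**Figure D3:**
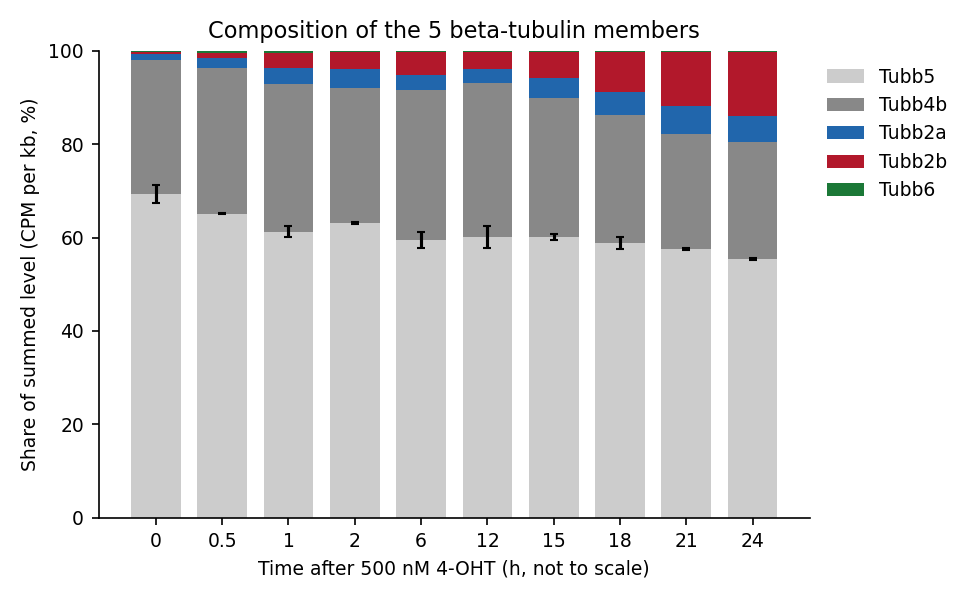
Stacked bars of the mean share (%) of each of 5 β-tubulin genes in their summed CPM per kb at each time after 4-OHT, with the SD (n = 2) drawn for Tubb5. The Tubb2b segment widens from 0.466% at 0 h to 13.7% at 24 h while that of Tubb5 narrows from 69.3% to 55.4%.

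Around Tubb2b, 17 genes reached into the 200 kb on either side of its start, of which 10 had at least 10 counts in some library and 7 had 0 in all. The 5 genes with counts that lie between Psmg4 and Bphl, a stretch not set in advance, all had higher levels at 24 h than at 0 h. Of these, Tubb2b and Gm47076 had been selected on their 0.5 h level, and Gm36500 had 1 count in each 0 h library. 4930447K03Rik and Tubb2a were called up at 24 h, where 20% of all genes were. Bphl and Serpinb6a, outside that stretch, were also higher at 24 h. 4930447K03Rik, a processed transcript on the Tubb2b strand between Gm47076 and Tubb2a, had 16 and 12 counts (0 h), 11 and 5 (0.5 h), 71 and 77 (2 h), 26 and 40 (6 h) and 109 and 135 (24 h). Neither of its 0.5 h libraries lay above both 0 h libraries, and its 6 h libraries lay below its 2 h libraries. It rose by a log2 change of 2.54 ± 0.26 at 2 h (adjusted p = 3.0e-08) and 3.48 ± 0.23 at 24 h (adjusted p = 7.8e-12), and by 1.77 ± 0.13 late against early (adjusted p = 2.0e-11).

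Gm36500, a noncoding RNA gene that starts 3.39 kb upstream of Tubb2b on the opposite strand, had 1 and 1 counts (0 h), 2 and 7 (0.5 h), 14 and 19 (2 h), 31 and 25 (6 h) and 36 and 41 (24 h). Against the floor of 3 counts it was at least 6.08-fold higher at 2 h and at least 16.5-fold higher at 24 h, and it rose late against early by a log2 change of 2.08 ± 0.19 (adjusted p = 9.0e-10). Beyond these genes the directions differed. Serpinb6a, a serine protease inhibitor, rose at 24 h by a log2 change of 2.27 ± 0.05 (adjusted p = 2.7e-20) and Bphl, a hydrolase, differed by 0.78 ± 0.06 (adjusted p = 2.4e-11). Psmg4, a proteasome assembly chaperone on the other side of Tubb2b, fell by 1.61 ± 0.10 on the log2 scale (adjusted p = 4.4e-12), and Slc22a23, a transporter-family gene, fell by 1.96 ± 0.30 (adjusted p = 3.9e-06). Ripk1, a kinase of cell death signalling, differed by -0.51 ± 0.05 (adjusted p = 1.7e-08).

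**Figure D4:**
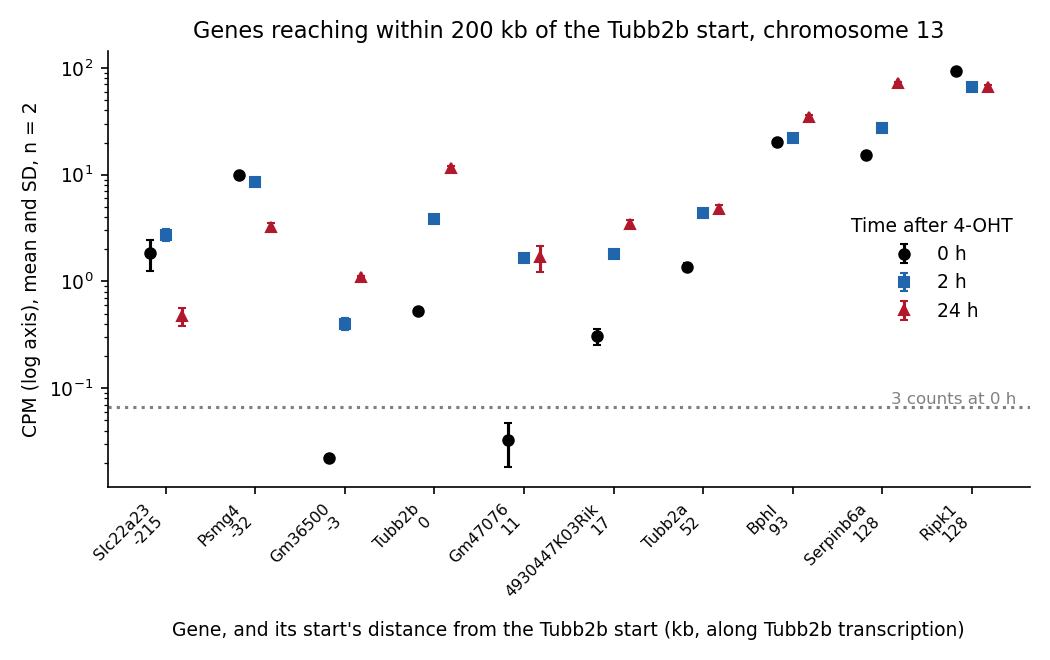
CPM on a log axis (mean and SD, n = 2) at 0, 2 and 24 h for the 10 genes with at least 10 counts that reach within 200 kb of the Tubb2b start, ordered by the distance of their starts in kb along the direction of Tubb2b transcription. Tubb2b, Gm36500, Gm47076, 4930447K03Rik, Tubb2a, Bphl and Serpinb6a are higher at 24 h than at 0 h, and Psmg4, Slc22a23 and Ripk1 are lower. The dotted line is the 3-count floor at 0 h.

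A further 11 tubulin genes were examined as a list, and 7 of them were tested. Of the other 4, Tuba3a and Tubb3, the neuronal β-tubulin, had 0 counts in all libraries, and Tubb1 and Tuba3b stayed below 10 counts. Tuba8, an α-tubulin known from muscle and brain, had 177 and 153 counts (0 h), 70 and 88 (0.5 h), 20 and 23 (1 h), 7 and 5 (2 h) and 3 and 5 (24 h). Its libraries were lower at each successive time up to 2 h without overlap, and it fell by 4.60 ± 0.24 on the log2 scale at 2 h (adjusted p = 4.2e-13) and changed by -4.96 ± 0.26 at 24 h (adjusted p = 1.3e-13).

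Tube1 and Tubd1, the ε- and δ-tubulins of centrioles, parted at 24 h. Tubd1 rose by a log2 change of 1.05 ± 0.07 at 2 h (adjusted p = 1.7e-11) and 1.47 ± 0.07 at 24 h (adjusted p = 9.8e-15), whereas Tube1 changed by 0.47 ± 0.06 at 2 h (adjusted p = 4.3e-07) and fell by 1.58 ± 0.07 at 24 h (adjusted p = 4.2e-15). Tubb4a, a brain β-tubulin, rose by 1.19 ± 0.18 (adjusted p = 2.9e-06) and Tubg2, a γ-tubulin, by 1.27 ± 0.28 (adjusted p = 0.00034) at 24 h, while Tubg1, the main γ-tubulin of the centrosome, differed by -0.72 ± 0.10 (adjusted p = 6.6e-07). Tubal3, an α-tubulin-like gene, had 2 and 2 counts (0 h) and 13 and 13 (24 h), at least 5.59-fold higher than the floor, and was called up. It passed the count filter only through later libraries. Both 0 h libraries were under the floor of 3 counts, so a call down was hardly possible. In all, 4 of the 7 were called up and 2 down at 24 h, against 1 each at the 2 h point, where 20% of all genes were up and 20.1% down at 24 h, and 6.25% and 6.91% at 2 h. Because the 4 called up include Tubal3, their share beside the gene-wide 20% rests in part on a call that could hardly go down. The median log2 change of the 7 at 24 h, Tubal3 included, was 1.19.

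The lists of genes that act on tubulin changed by 24 h in the following counts, beside a gene-wide median log2 change of -0.01 and gene-wide shares of 20% called up and 20.1% called down. Of 21 folding genes, 7 were called down and 2 up (9 and 1 with library totals), with a median of -0.47. These are 33.3% down and 9.52% up. The 7 were all subunits of the TRiC chaperonin, led by Cct6a (66.1 ± 0.9 CPM at 0 h, 20.2 ± 0.5 at 24 h, log2 change -1.71 ± 0.07, adjusted p = 1.8e-15) and Cct3 (-1.69 ± 0.05, adjusted p = 8.7e-19). Vbp1, a prefoldin subunit, rose 2.83-fold (adjusted p = 3.1e-15) and Tbcc, a cofactor that stimulates GTP hydrolysis by tubulin, by a log2 change of 1.07 ± 0.17 (adjusted p = 5.5e-06). At 2 h edgeR and DESeq2 called 0 of the folding genes in either direction, although 18 of the 21 had an unadjusted p below 0.05 in edgeR, since none reached a 2-fold change.

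Of 11 autoregulation genes tested, 3 were called up and 1 down, with a median of 0.47 (with library totals, 2 and 1). The 27.3% up is near the gene-wide 20%, and the 9.09% down lies below 20.1%. Scaper rose from 150.4 ± 4.8 to 586.2 ± 13.6 CPM (log2 change 1.96 ± 0.04, adjusted p = 1.2e-20) and Ttc5, which recognises nascent tubulin chains on ribosomes, from 36.9 ± 0.003 to 125.9 ± 1.0 CPM (1.77 ± 0.04, adjusted p = 7.7e-20). The remaining members of this list are subunits of the general CCR4-NOT deadenylase, of which Cnot10 fell by 1.11 ± 0.05 on the log2 scale (adjusted p = 4.1e-15). The third gene called up was Cnot6l, named after its values were seen.

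Of 14 tubulin-modifying enzymes tested, 2 were called down and 1 up, with a median of 0.31. Both shares, 14.3% and 7.14%, lie below the gene-wide 20.1% and 20%. Ttll11, a polyglutamylase, fell from 66.9 ± 0.1 CPM at 0 h to 11.3 ± 0.3 at 2 h and 4.16 ± 0.20 at 24 h, by 4.01 ± 0.08 on the log2 scale at 24 h (adjusted p = 5.2e-21), and was the 1 gene of the list called at 2 h. Ttll4, a glutamylase that starts side chains, fell by 1.11 ± 0.04 (adjusted p = 2.3e-17), and Sirt2, a deacetylase with α-tubulin among its substrates, rose by 1.43 ± 0.11 (adjusted p = 4.7e-11).

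Of 11 nucleation genes 1 was called down, with a median of -0.26, a share of 9.09% against 20.1% gene-wide. It was Pcnt, the pericentriolar scaffold pericentrin, at -1.01 ± 0.05 (adjusted p = 5.8e-14), and DESeq2 called 0. Of 21 microtubule-associated genes tested, 3 were called up and 2 down (3 and 5 with library totals), with a median of -0.34. At 14.3% up and 9.52% down, the list lies below the gene-wide 20% and 20.1%. Clip2, a plus-end binding protein, differed by 2.00 ± 0.35 (adjusted p = 2.6e-05) and Katna1, the catalytic subunit of the severing enzyme katanin, by 1.74 ± 0.06 (adjusted p = 4.4e-17). Kif2c, a depolymerising kinesin, fell by 1.23 ± 0.08 (adjusted p = 9.4e-12) and Stmn1, which binds free tubulin dimers, by 1.21 ± 0.09 (adjusted p = 9.1e-11). The third gene called up was Map2 and the 3 called at 2 h were Map1b and Stmn3 (up) and Map7 (down), named after their values were seen.

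**Figure D5:**
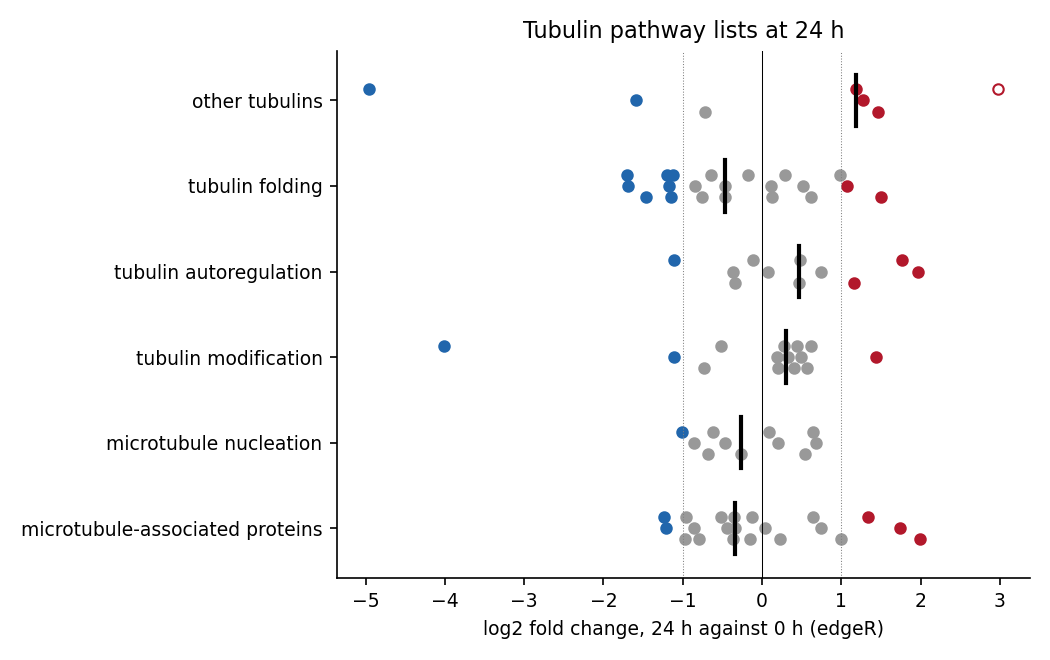
The log2 fold change at 24 h against 0 h (edgeR) for each gene tested in 6 lists, with black bars at list medians and dotted lines at a 2-fold change. Red points were called up, blue down and grey not called, the open point is Tubal3 with 2 counts in each 0 h library, and the 7 blue points among folding genes are TRiC subunits.

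Of 8 neuronal markers, 6 had at most 5 counts in any library. Their summed level was 88.7 to 90.5 CPM at 0 h and 55.3 to 225 CPM over all libraries, nearly all of it Map2, which had 86.1 CPM at 0 h and 217 CPM at 24 h. Syn1 had 3.41 CPM at 0 h and 1.53 CPM at 24 h.

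Likeness of time course is given as Pearson's r of log2(CPM + 1) over the 20 libraries among 12047 genes, as a description in which all genes share the same libraries. Genes most like Tubb2b were Mkrn1 (r = 0.990), Rel (0.989), Mtmr12 (0.988), Dhx40 (0.987) and Slc25a51 (0.986). Rel, an NF-κB subunit, had 61.9 ± 0.1 CPM at 0 h and 242.5 ± 7.0 at 24 h, and Dhx40, a helicase-family gene, 17.7 ± 0.04 and 96.9 ± 4.9 CPM. Tubb2a (r = 0.921) and Gm47076 (0.899) were less like Tubb2b than these, and Tuba4a ran opposite to it (r = -0.939). The genes most like Tubb5 were Hsp90aa1 (r = 0.966), a cytosolic chaperone, Kpna2 (0.960), a nuclear import receptor, Eif1ax (0.960), Topbp1 (0.959), a DNA replication and checkpoint factor, and Fv1 (0.955). Kpna2 had 89.8 ± 0.3 CPM at 0 h and 21.3 ± 0.7 at 24 h. Among the tubulins, Tuba1b was the closest to Tubb5 (r = 0.941), followed by Tubb4b (0.894), Tuba1c (0.838) and Tuba4a (0.831). By Spearman's rho Tuba4a came second (0.883), behind Tuba1b (0.890) and ahead of Tubb4b (0.753) and Tuba1c (0.665).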

How the data were processed

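Per the labels and methods, the authors ran nf-core/rnaseq on 75-base paired-end reads, with STAR for alignment to mm10 and featureCounts for counting over exons and introns, and deposited raw counts for 20 libraries, with no normalization. Annotation release, strand setting and the treatment of ambiguous reads are not given in the sources used here. The 16601 genes that reached 10 counts in 2 or more libraries were fitted in edgeR 4.0.16 (R 4.3.3) with TMM factors, time point as the factor and the quasi-likelihood test over all 20 libraries. P-values were adjusted by Benjamini-Hochberg over all genes, and a call needed an adjusted p below 0.01 and a fold above 2. DESeq2 1.42.0 gave alternative fits. The script was tested on simulated counts. Errors are SE for log2 changes and SD for levels. Reads have no molecular identifiers, so copies made in amplification could not be told apart. Floors and counts thus carry more than counting error, and the replicate chi-square per degree of freedom was 1.24 to 13.9.

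The genes and lists were chosen with earlier results of these data known. Since Tubb2b and Gm47076 were selected at 0.5 h, no p-value is given for them against 0 h, nor for any gene at 0.5 h. Named genes were the 10 genes, the 5 genes most like Tubb2b and the 5 most like Tubb5, other tubulins and genes within 200 kb of Tubb2b with 10 counts in a library, and of each list the 2 largest rises and 2 largest falls called at 24 h. Gene positions came from GENCODE M21 and promoters from RefSeq. Alternatives changed scaling, filter, test, thresholds, block, length and likeness measure, and left out each library.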

Additional observations from a re-analysis of the deposited data

How the results depend on the processing

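Counts of calls kept within 1.5 times their value under every alternative run except the following. With an adjusted p below 0.05 and a fold above 1.5, the tubulins called up at 1 h were 2, those called down at 2 h were 2 and those called down at 24 h were 5. With library totals only, 4 were called down at 24 h, with Tubb5 at -1.01 and Tuba1c at -1.10, and that scaling moved the median of all genes by -0.26, so that relative to it neither passed 2-fold. It also gave 1 folding gene called up, 2 nucleation genes down and 5 microtubule-associated genes down, while DESeq2's size factors and DESeq2's Wald test each gave 0 nucleation genes down. Comparing 24 h with 1 h alone gave 3 genes called down. Leaving out 1 library gave 0 to 1 tubulins called down at 2 h. By merged exon length, Tubb2b made up 15.8% and Tubb5 52.0% of the summed level of the 5 β-tubulins at 24 h. The Tubb2b share rose by 19.7 to 21.2 points without each library in turn. The late rise of Tubb2b ranged from 1.28 to 1.52 on the log2 scale over the alternatives, all called. Of the 5 genes most like Tubb2b, 1 remained by Spearman's rho. Of those most like Tubb5, 2 remained over time point means and 0 by Spearman's rho. Alternatives for the test among 1 to 24 h were chosen after seeing the data, and DESeq2 was not run for it.

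The replicate numbers were not taken to pair libraries. Deviations of same-numbered libraries correlated above 0.1 in 16 of 45 pairs of time points, not in all (-0.625 to 0.418, mean 0.0195). With the replicate block, the counts were 1 up and 2 down at 24 h and 1 up and 1 down late against early, Tubb2b at 1.48, and the block changed no other call. Counts of 0 to 6 for Tuba1a limit it to that.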
